A study of Homo sapiens with 32 samples.

Results

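The miR-29 family was examined in small RNA libraries of 293T cells, a human embryonic kidney line transformed with adenovirus sequences and carrying the SV40 large T antigen. Its members were chosen by row name: mir-29a, mir-29b and mir-29c, 3 of the 1513 miRNA rows of the count table. No measured value entered that rule, but the family was selected on knowledge of earlier results of these data, so the p-values below are not independent evidence. All 3 rows passed the filter on low counts in every comparison.

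The 8 clones fell into a wild-type set (clones 52, 55, 57 and 67) and a set carrying the prime-edited allele DGCR8 delta103-126Q, which lacks the 24 codons reported to bind ERH (clones 30, 34, 42 and 43). DGCR8 binds RNA and works with the nuclease DROSHA, and ERH is a small protein of the nucleus. Every clone was transfected with each of 4 shRNA vectors, numbered 1 and 2 for the controls, which target no gene, and again 1 and 2 for those against ERH. All cells, controls included, were selected with 2 µg/ml puromycin and sorted on day 5 for the vector's fluorescent marker. This gave 8 groups of 4 libraries, 32 in all. A clone is a line of its own, and differences between genotypes rest on 4 clones against 4. The transfection was transient. The table holds miRNA rows and 4 spike-in RNAs, so neither the degree of ERH depletion nor the edited allele was checked here. The counts come from whole sorted populations, in which fewer expressing cells and less miRNA per cell cannot be told apart.

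A miRNA is cut from a hairpin in a primary transcript by DROSHA and DGCR8, which together form the Microprocessor, and then trimmed by DICER to a mature strand that is loaded into an Argonaute protein. Bases 2 to 8 of the mature strand, the seed, pair with target mRNAs. miRNAs of the miR-29 family are known for lowering mRNAs of collagens and other extracellular matrix proteins, of the DNA methyltransferases DNMT3A and DNMT3B and of the survival factor MCL1. ERH has been described as a Microprocessor cofactor that helps hairpins which are poor substrates by themselves and lie close to another hairpin on the same transcript.

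The mature strands are shown because the 3 rows differ by very few letters. They were taken from RefSeq (GRCh38.p14), 5′ to 3′, with the seed in capitals.
miR-29a-3p: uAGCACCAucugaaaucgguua
miR-29b-3p: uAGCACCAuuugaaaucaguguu
miR-29c-3p: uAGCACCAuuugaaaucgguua
The seed AGCACCA was shared by all 3, and no other of the 2370 mature miRNAs in the RefSeq table had it at these positions (3 of 2370, 0.127%). Counted from the 5′ end, miR-29c-3p differed from miR-29a-3p by C10U alone. miR-29b-3p differed from miR-29a-3p by C10U, G18A, U21G and A22U and was 23 rather than 22 bases long. A read of miR-29a-3p with a single sequencing or alignment error at position 10 could therefore be counted as miR-29c-3p, and the mismatches allowed by the authors' counting are not given in the sources used here. The last letters of miR-29b-3p, AGUGUU, which have been described as a nuclear import element, ended 2 of the 2370 mature miRNAs (0.0844%), the other being miR-519e-3p.

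The family is encoded by 4 hairpins in 2 pairs, printed 5′ to 3′ with the mature strands of both arms in capitals. They show that each pair joins a mir-29b hairpin to a different partner.
MIR29B1: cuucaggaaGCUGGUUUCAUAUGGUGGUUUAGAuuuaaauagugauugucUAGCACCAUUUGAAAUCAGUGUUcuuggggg
MIR29A: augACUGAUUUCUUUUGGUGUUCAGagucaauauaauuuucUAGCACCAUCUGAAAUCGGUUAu
MIR29B2: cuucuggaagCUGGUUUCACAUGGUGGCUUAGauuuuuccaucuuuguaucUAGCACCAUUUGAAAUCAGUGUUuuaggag
MIR29C: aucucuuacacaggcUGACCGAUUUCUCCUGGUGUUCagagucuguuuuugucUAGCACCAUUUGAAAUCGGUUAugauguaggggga
MIR29B1 (chr7:130877459-130877539, minus strand, GRCh38) lies upstream of MIR29A (chr7:130876747-130876810, minus strand), with 648 bases between them. In GENCODE 29 both lie within the long noncoding gene AC016831.6 but in none of its exons, and MIR29B1 also lies in an exon of 1 transcript of LINC-PINT. MIR29B2 (chr1:207802443-207802523, minus strand) lies upstream of MIR29C (chr1:207801852-207801939, minus strand), with 503 bases between them, and both lie in an exon of the host transcript MIR29B2CHG. The genome build behind the deposited counts is not given in the sources used here. The 2 mir-29b hairpins give the same 3′ strand, so the single mir-29b row adds up products of both transcripts and cannot tell them apart. Each row also adds up both arms of its hairpin.

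The hairpins were short of G and C. MIR29A had a GC content of 32.8%, lower than all but 5.06% of the 1560 RefSeq hairpins, whose median was 52.1%. MIR29B1 and MIR29B2 each had 39.5%, and MIR29C had 44.3%. Folding energies predicted with RNAfold were -24.6 kcal/mol for MIR29A (64 bases), -34.1 for MIR29B1 (81 bases), -31.1 for MIR29B2 (81 bases) and -34.8 for MIR29C (88 bases), beside a median of -36.4 over all hairpins. The entries differ in how much flank they include, so energies of hairpins of different length are not directly comparable.

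The libraries held 1318923 to 6222790 miRNA counts each (median 2299476.5). No pair of libraries within a group agreed within sampling noise (lowest chi-square per degree of freedom 75.4 over 48 pairs). Counts per library ran from 6694 to 27844 for mir-29a, from 1119 to 8546 for mir-29b and from 5061 to 34403 for mir-29c, so counting error was small beside the spread between clones. Together the 3 rows took a median of 1.30% of a library's miRNA counts (0.826% to 2.36%). By count summed over all libraries, mir-29c ranked 32nd, mir-29a ranked 35th and mir-29b ranked 70th of the 1513 rows.

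Levels are given as CPM (counts relative to library size) after TMM scaling, a scaling by the bulk of miRNA rows, for the summed 2 libraries of each clone and arm. Reads of mature miRNAs all have nearly the same length, so levels of the 3 rows were not divided by length. Capture in library preparation can differ between strands, so an order of levels between rows is a description of these libraries. Differences between groups are log2 fold changes with a standard error (SE), tested with edgeR's quasi-likelihood test and adjusted over all rows tested by the Benjamini-Hochberg method. An adjusted p under 0.05 is called a change.

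Under ERH shRNAs, mir-29c fell most, mir-29a fell less, and mir-29b did not pass the test. In wild-type clones under control shRNAs, mir-29c stood at 12158 CPM in clone 52, 11058 in clone 55, 6663 in clone 57 and 9709 in clone 67. Under ERH shRNAs the same clones stood at 3479, 3724, 3091 and 7779 CPM. All 4 clones fell, but clone 67 kept most of its mir-29c and overlapped the control range. In deletion clones, mir-29c went from 11002 to 3286 CPM in clone 30, from 7542 to 2475 in clone 34, from 9387 to 4363 in clone 42 and from 7228 to 2284 in clone 43. Here the 2 arms did not overlap. Over all 8 clones the fitted log2 fold change of mir-29c was -1.37 ± 0.13 (SE, 95% interval -1.65 to -1.09, edgeR adjusted p = 3.91e-08), or 0.387 times the control level. It had the 5th lowest p of 667 rows, and 1.80% of the rows had a lower fold change.

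mir-29a, which shares its transcript with a mir-29b hairpin as mir-29c does, fell by a smaller amount in every clone. Wild-type levels went from 10199 to 6104 CPM in clone 52, from 8286 to 4790 in clone 55, from 6883 to 4810 in clone 57 and from 6207 to 5056 in clone 67. The wild-type arms did not overlap. Deletion clones went from 8713 to 5223 CPM in clone 30, from 7388 to 4704 in clone 34, from 5081 to 3855 in clone 42 and from 5300 to 3805 in clone 43, and there the highest ERH value exceeded the lowest control value. The fitted log2 fold change over 8 clones was -0.58 ± 0.10 (SE, 95% interval -0.78 to -0.38, edgeR adjusted p = 9.47e-05), or 0.671 times the control level.

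mir-29b, the member made from both transcripts, moved in different directions in different clones. Wild-type levels went from 2100 to 1246 CPM in clone 52 and from 2043 to 1718 in clone 55, but from 1170 to 1461 in clone 57 and from 1427 to 1973 in clone 67. Deletion levels went from 2656 to 2062 CPM in clone 30, from 1438 to 1695 in clone 34, from 1497 to 1343 in clone 42 and from 1420 to 1024 in clone 43. Thus 5 of 8 clones were lower and 3 higher, and the arms overlapped in both genotypes. The fitted log2 fold change was -0.12 ± 0.13 (SE, edgeR adjusted p = 0.470), and its 95% interval of -0.38 to 0.14 did not reach the fitted values of the other members.

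**Figure D1:**
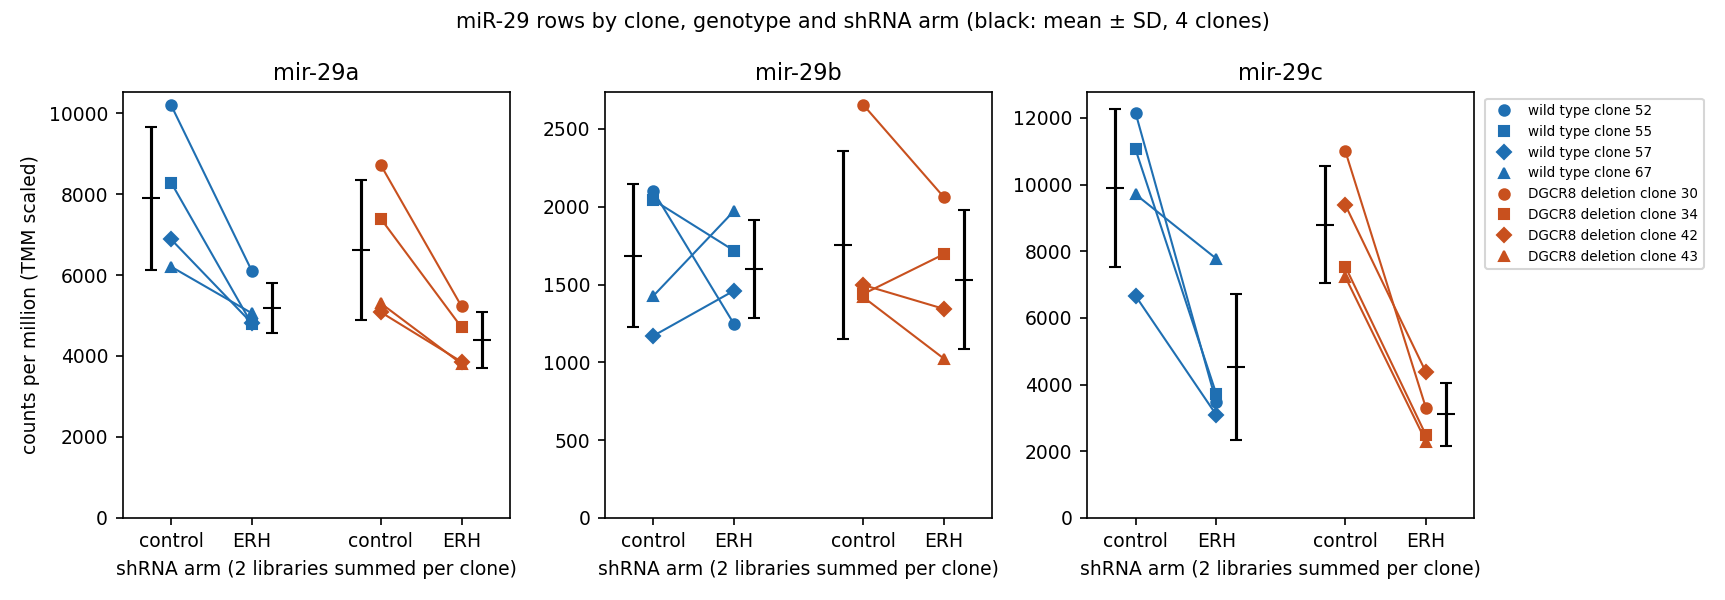
Level of each miR-29 row (CPM, TMM scaled, y axis) under control and ERH shRNAs (x axis), with 1 line per clone in blue (wild type) or orange (DGCR8 deletion) and black bars for the mean ± SD of 4 clones. Lines for mir-29a and mir-29c fall in all 8 clones, least for mir-29c in clone 67 (9709 to 7779), while those for mir-29b cross.

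Of the members, 2 of 3 passed the test for the knockdown in all clones, beside 36.6% of all 667 rows tested (134 higher and 110 lower). TMM scaling sets the bulk of miRNA rows to no change, and the balance of calls followed the scaling: with spike-in counts as the scale 233 rows were higher and 22 lower, and with total miRNA counts 210 were higher and 36 lower. The median log2 fold change of all rows was 0.06 with TMM, 0.33 with total counts and 0.52 with spike-in counts. On these scales the fold change of mir-29c was -1.10 (adjusted p = 2.22e-05) with total counts and -0.92 (adjusted p = 0.0102) with spike-in counts, both in edgeR. That of mir-29a was -0.30 (adjusted p = 0.00862) and -0.12 (adjusted p = 0.654), so its fall was relative to the other miRNAs and was not called per spike-in. That of mir-29b turned to 0.15 and 0.33, neither of them called (edgeR adjusted p = 0.394 and 0.287). Per spike-in, mir-29c was lower in 7 of 8 clones, mir-29a in 5 of 8 and mir-29b in 3 of 8.

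Within wild-type clones alone, the log2 fold change was -1.15 ± 0.22 (SE) for mir-29c (adjusted p = 0.000688), -0.54 ± 0.17 for mir-29a (adjusted p = 0.0203) and -0.0030 ± 0.21 for mir-29b (adjusted p = 0.992), in edgeR. So 2 of 3 members passed, beside 31.3% of 613 rows (128 higher and 64 lower, against 170 and 11 with spike-in scaling and 184 and 27 with total scaling). mir-29a was no longer called without clone 55 (-0.48, edgeR adjusted p = 0.133) or without clone 57 (-0.57, adjusted p = 0.0669), and with spike-in scaling it was 0.07. Its call was also lost with total scaling, without the filter, without the block and with the second vectors alone. In 7 of 14 alternatives mir-29a kept its direction and call, and values over all 14 ran from -1.03 to 0.07. mir-29c without clone 67 was -1.44 (edgeR adjusted p = 2.16e-05) and was called whichever clone was left out, but with spike-in scaling it was -0.55 (adjusted p = 0.365).

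Within deletion clones alone, the log2 fold change was -1.56 ± 0.13 (SE) for mir-29c (adjusted p = 2.81e-05), -0.59 ± 0.10 for mir-29a (adjusted p = 0.00480) and -0.22 ± 0.13 for mir-29b (adjusted p = 0.312), in edgeR. So 2 of 3 members passed, beside 10.3% of 633 rows (27 higher and 38 lower, against 85 and 17 with spike-in scaling and 86 and 23 with total scaling). Only 1.26% of the rows had a lower fold change than mir-29c. With spike-in scaling mir-29c stood at -1.27 (edgeR adjusted p = 3.88e-05) and mir-29a at -0.30 (adjusted p = 0.426). mir-29b passed in 1 setting, without clone 34 (-0.37, edgeR adjusted p = 0.0287).

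The knockdown effect was also read with each vector by itself. With ERH shRNA 1 against control shRNA 1, the within-clone log2 change of mir-29c was -1.40 ± 0.60 (SD, n = 8 clones), and with the second pair of vectors it was -1.24 ± 0.68 (SD, n = 8), lower in 8 of 8 clones each time. mir-29a changed by -0.60 ± 0.28 and by -0.46 ± 0.22 (SD, n = 8), again lower in 8 of 8 clones with each vector. mir-29b changed by -0.08 ± 0.51 and -0.05 ± 0.79 (SD, n = 8) and was lower in 5 and in 4 of 8 clones. Fitted over all clones, mir-29a and mir-29c were called with either vector alone (edgeR adjusted p at most 0.0285).

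The 2 control vectors give the background of such comparisons. Of the 571 rows tested for control shRNA 2 against control shRNA 1, 0 (0%) passed, with 48 at an unadjusted p under 0.05 and 1 called by DESeq2. The log2 fold changes were -0.14 ± 0.10 (SE) for mir-29a, -0.18 ± 0.17 for mir-29b and -0.15 ± 0.13 for mir-29c (edgeR adjusted p = 0.686, 0.793 and 0.783).

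The DGCR8 deletion was compared between clones under control shRNAs. The level of mir-29a was 7894 ± 1764 CPM (SD, n = 4) without and 6620 ± 1740 with the deletion. In the same order mir-29b stood at 1685 ± 459 and 1753 ± 603, and mir-29c at 9897 ± 2377 and 8790 ± 1756. Clone values of the 2 genotypes overlapped for all 3 rows. The log2 fold changes were -0.26 (95% interval -0.75 to 0.23) for mir-29a, 0.05 (-0.53 to 0.63) for mir-29b and -0.17 (-0.64 to 0.30) for mir-29c, with edgeR adjusted p-values of 0.412, 0.906 and 0.588. None of the 3 members passed, beside 25.9% of 536 rows (101 higher and 38 lower, against 134 and 0 with spike-in scaling and 154 and 4 with total scaling). Each interval lies above the fitted knockdown change of mir-29c, -1.37, and those of mir-29a and mir-29c hold the fitted knockdown change of mir-29a, -0.58. On the spike-in scale the differences of mir-29a and mir-29c were 0.26 and 0.28, so their sign depended on the scaling. When a trend of counts on hairpin GC content was taken out, mir-29a, whose hairpin is among the poorest in G and C, stood at -0.79 (edgeR adjusted p = 0.0132). The same correction moved its knockdown change in wild-type clones from -0.54 to -1.03.

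Under ERH shRNAs, deletion clones held 4397 ± 688 CPM of mir-29a (SD, n = 4) beside 5190 ± 621 in wild-type clones, 1531 ± 448 of mir-29b beside 1599 ± 315, and 3102 ± 947 of mir-29c beside 4518 ± 2189. The genotypes overlapped for every row. Log2 fold changes were -0.25 for mir-29a, -0.08 for mir-29b and -0.56 ± 0.31 (SE, 95% interval -1.24 to 0.12) for mir-29c, with edgeR adjusted p-values of 0.508, 0.886 and 0.436. Of 569 rows 0 (0%) passed, with 87 at an unadjusted p under 0.05 and 11 called by DESeq2. The value for mir-29c rested in part on clone 67: without it the difference was -0.15 (edgeR adjusted p = 0.754).

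Whether the knockdown acted differently in the 2 genotypes was tested as an interaction. The difference of the knockdown log2 fold changes, deletion minus wild type, was 0.02 for mir-29a (95% interval -0.34 to 0.37), -0.14 for mir-29b (-0.67 to 0.40) and -0.33 for mir-29c (-0.89 to 0.24), with edgeR adjusted p-values of 0.975, 0.814 and 0.554. Of 667 rows 0 (0%) passed, with 127 at an unadjusted p under 0.05 and 19 called by DESeq2. With the first vectors alone the value for mir-29c was -0.91 (edgeR adjusted p = 0.0331), and with the second vectors alone it was 0.04 (adjusted p = 0.983). Without clone 67 it was -0.08 (edgeR adjusted p = 0.925).

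**Figure D2:**
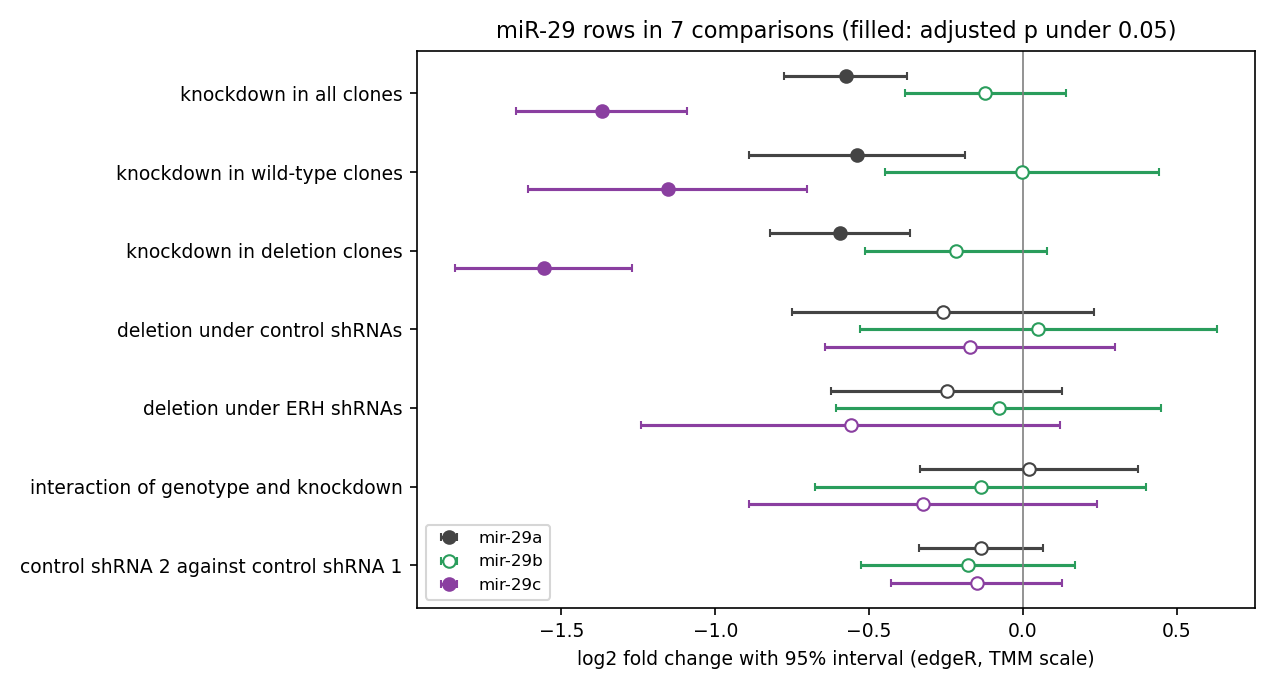
Log2 fold change (x axis, edgeR, TMM scale) with its 95% interval for mir-29a, mir-29b and mir-29c in the 7 comparisons (y axis), filled where the adjusted p is under 0.05. Filled points are those of mir-29a and mir-29c in the 3 knockdown comparisons, and the intervals of mir-29b include 0 in all 7.

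A ratio of 2 rows of the same library needs no scaling, so the members were set against each other as log2 ratios of summed counts per clone. Under control shRNAs the mir-29b to mir-29c ratio was -2.53 in clone 52, -2.44 in clone 55, -2.51 in clone 57 and -2.77 in clone 67, and -2.05, -2.39, -2.65 and -2.35 in clones 30, 34, 42 and 43. Under ERH shRNAs it was -1.48, -1.12, -1.08 and -1.98 in the wild-type clones and -0.67, -0.55, -1.70 and -1.16 in the deletion clones. Every clone rose, and the 2 arms did not overlap in either genotype. The change was 1.24 ± 0.33 (SD, n = 8), a 2.37-fold rise of mir-29b relative to mir-29c (exact sign-flip permutation test, two-sided, p = 0.00781, the smallest that 8 clones allow, adjusted p = 0.0469 over 12 ratio tests). Between the control vectors, compared as single libraries rather than sums, this ratio changed by -0.03 ± 0.35 (SD, n = 8).

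The mir-29c to mir-29a ratio, which sets the downstream hairpins of the 2 transcripts against each other, fell by 0.79 ± 0.37 (SD, n = 8) on the log2 scale, lower in 8 of 8 clones (exact permutation p = 0.00781, adjusted p = 0.0469). Between the control vectors, compared as single libraries, this ratio changed by -0.01 ± 0.46 (SD, n = 8), with a range of -0.64 to 0.59. With single libraries the knockdown change was -0.81 ± 0.40 (first vectors) and -0.78 ± 0.53 (second vectors, SD, n = 8). The control spread lay between these. With the second vectors alone the ratio was higher under the ERH shRNA in 1 of 8 clones (clone 67, by 0.19). The change per clone, both vectors summed, ran from -1.18 in clone 43 to -0.02 in clone 67. In clone 67 the summed mir-29c and mir-29a fell by almost the same factor. Its single-vector changes of the ratio had opposite signs, at -0.26 with the first vectors and 0.19 with the second. The mean change without that clone was -0.90, and with 7 clones the smallest p allowed, 0.0156, cannot pass the adjustment over 12 tests. The mir-29b to mir-29c and mir-29c to mir-29a ratios share mir-29c, so their 2 test results are not independent. Each passed the adjustment only because the other also had the smallest p that 8 clones allow.

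The mir-29b to mir-29a ratio rose by 0.45 ± 0.36 (SD, n = 8), higher in 7 of 8 clones (exact permutation p = 0.0234), which did not pass the adjustment (adjusted p = 0.0938). Clone 52 (-0.01) and clone 43 (0.01) kept the ratio of their controls, while clone 34 rose by 0.89. Between the control vectors, compared as single libraries, this ratio changed by -0.04 ± 0.72 (SD, n = 8). With single libraries the knockdown change was 0.52 ± 0.53 (first vectors) and 0.41 ± 0.65 (second vectors, SD, n = 8), each with a somewhat narrower spread. None of the 9 ratio tests on the deletion or the interaction passed (exact permutation, adjusted p from 0.429 to 0.657). The smallest p these tests allow is 0.0286, and a single such test at that value cannot pass the adjustment over 12 tests. Their failure to pass therefore does not show that the ratios were alike. The difference between genotypes in the knockdown change was 0.19 for the mir-29b to mir-29c ratio and -0.35 for the mir-29c to mir-29a ratio.

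**Figure D3:**
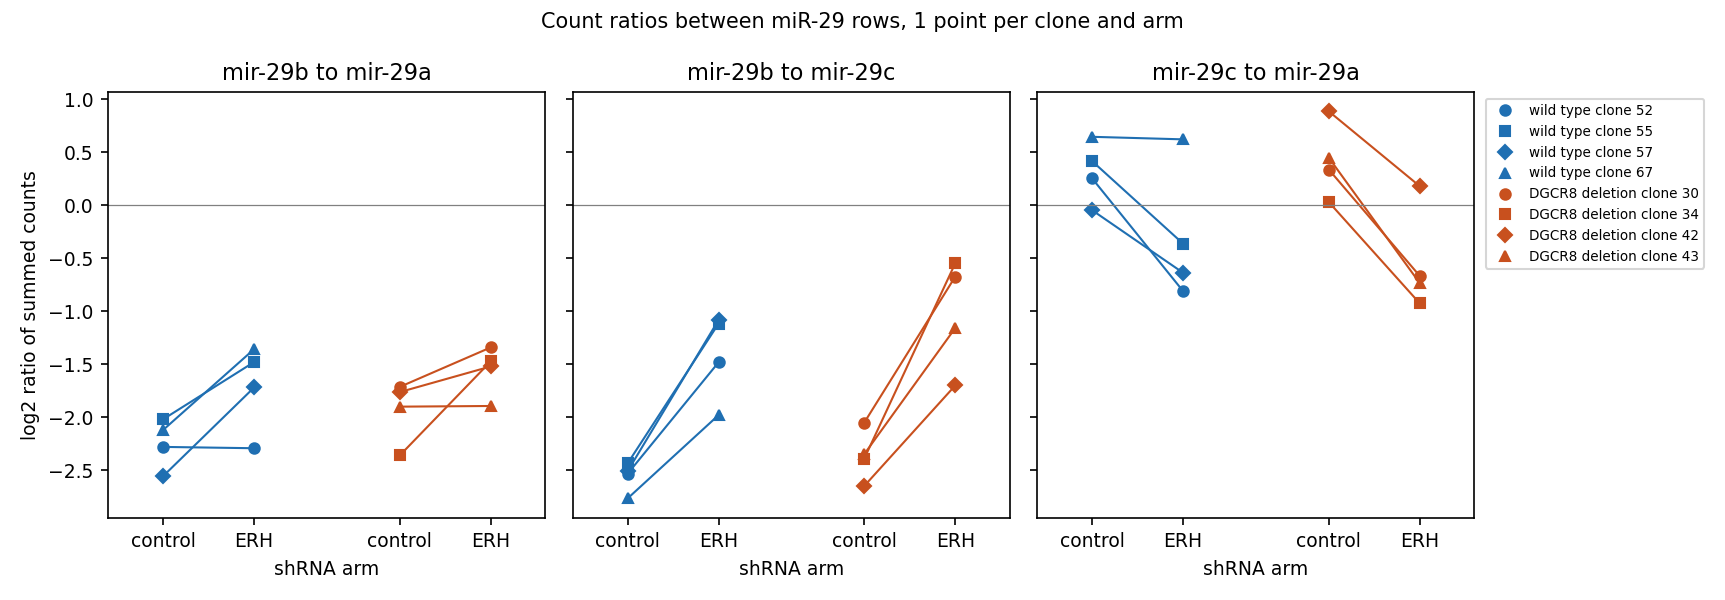
Log2 ratio of summed counts (y axis) for the 3 pairs of miR-29 rows under control and ERH shRNAs (x axis), with 1 line per clone in blue (wild type) or orange (DGCR8 deletion). The mir-29b to mir-29c ratio rises in 8 of 8 clones, the mir-29c to mir-29a ratio falls in 8 of 8 with clone 67 nearly flat, and the mir-29b to mir-29a ratio rises in 7 of 8.

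As shares of the family's own counts, mir-29c was on average the largest member under control shRNAs, with 50.7% ± 4.45 (SD, n = 4) in wild-type and 51.5% ± 5.42 in deletion clones. In clone 57 mir-29a was slightly larger (46.8% beside 45.3%). Under ERH shRNAs it held 38.5% ± 9.52 and 34.2% ± 7.84 (SD, n = 4). mir-29a went from 40.8% ± 4.68 to 47.2% ± 9.52 in wild-type and from 38.5% ± 5.45 to 49.1% ± 6.11 in deletion clones, and so took the first place in the mean of both genotypes. The exceptions were clone 67 (52.5% mir-29c) and clone 42 (45.6%), where mir-29c was still the largest member under ERH shRNAs. mir-29b was the smallest member in all 16 sums and went from 8.58% ± 0.70 to 14.3% ± 2.36 in wild-type and from 10.1% ± 1.34 to 16.8% ± 2.94 in deletion clones (SD, n = 4). In wild-type clones the log2 ratio of mir-29c to mir-29a was 0.32 ± 0.29 (SD, n = 4) under control and -0.30 ± 0.64 under ERH shRNAs, with values on both sides of 0 in each arm, whereas mir-29b lay below both rows in every clone.

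**Figure D4:**
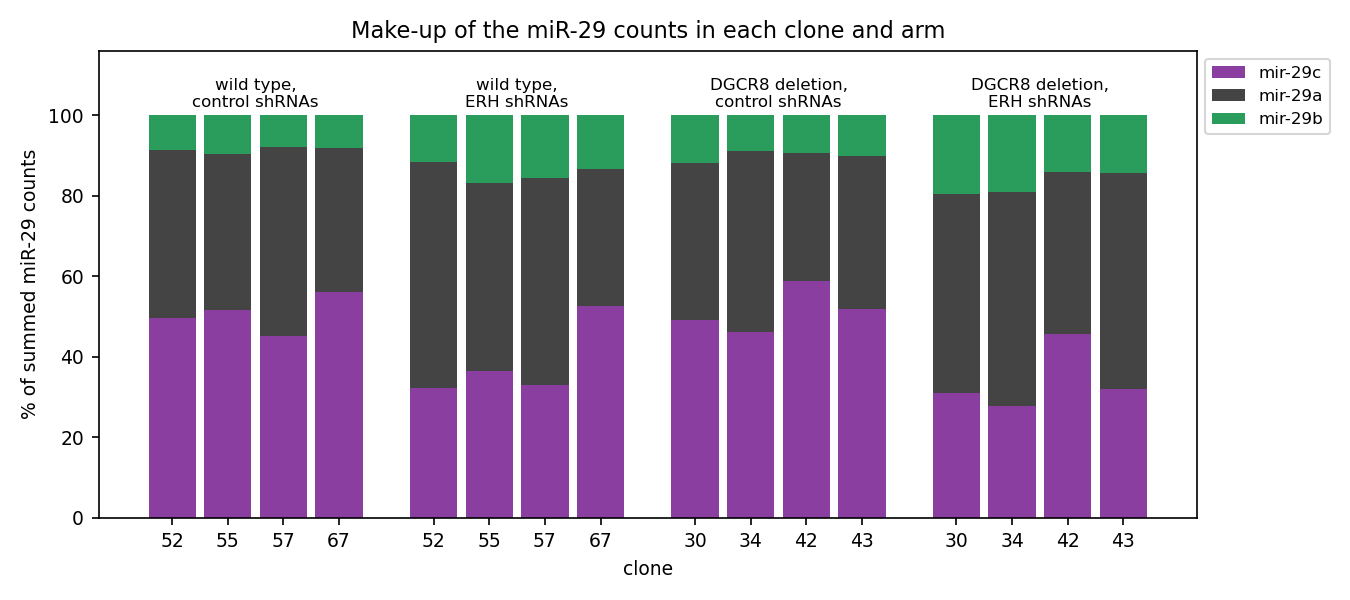
Share of the summed miR-29 counts (%, y axis) held by mir-29c, mir-29a and mir-29b in each clone (x axis), in 4 blocks by genotype and shRNA arm. The mir-29c block shrinks under ERH shRNAs, from a mean of 50.7% to 38.5% in wild-type and from 51.5% to 34.2% in deletion clones, with clone 67 at 52.5%.

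A scaling shifts all rows of a library together, so it leaves the order of the 3 members nearly as it is. With TMM, total-count or spike-in scaling, mir-29c had the lowest and mir-29b the highest knockdown log2 fold change in both genotypes. The absolute direction of mir-29a and mir-29b did not hold in this way.

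**Figure D5:**
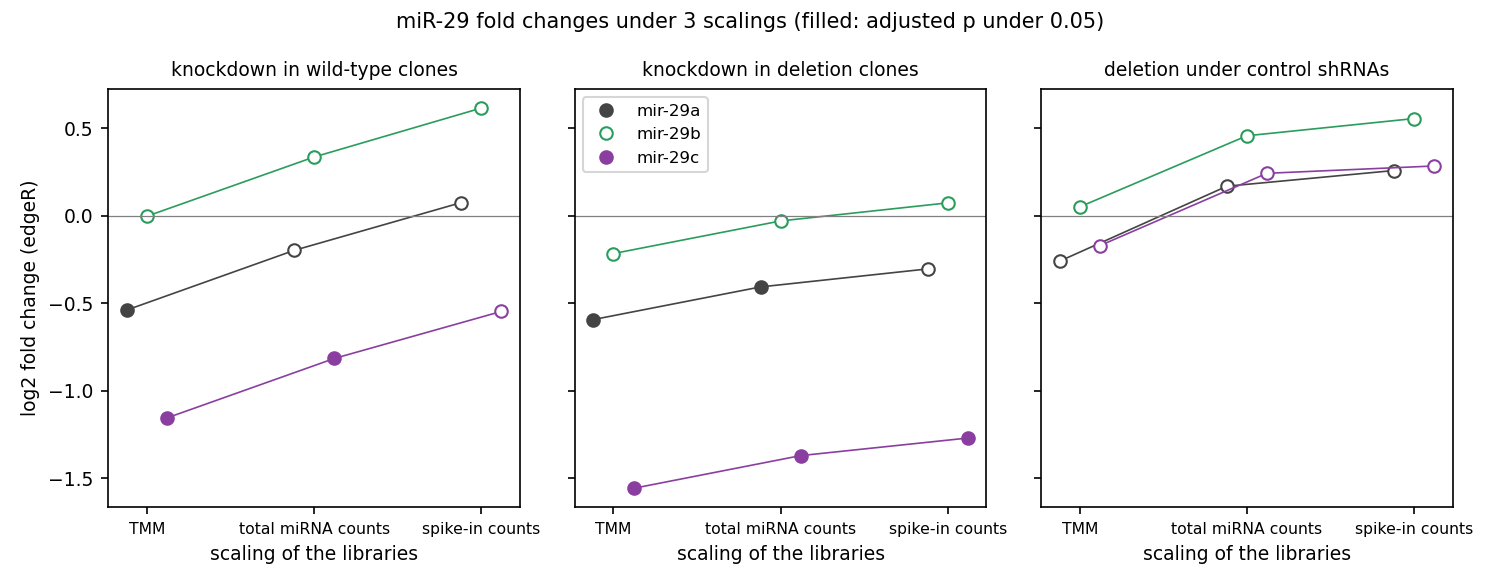
Log2 fold change (y axis, edgeR) of the 3 miR-29 rows under 3 scalings of the libraries (x axis) for the knockdown in wild-type clones, the knockdown in deletion clones and the deletion under control shRNAs, filled where the adjusted p is under 0.05. In wild-type clones mir-29a moves from -0.54 with TMM to 0.07 with spike-in counts, while mir-29c stays the lowest of the 3 in both knockdown panels.

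Other rows whose hairpin shares a transcript with 1 other main hairpin were counted beside the family, from a list of 22 rows chosen with earlier results of these data known. The list was not checked for completeness, so its counts describe these 22 rows and not all such hairpins. In the knockdown over all clones 15 of the 22 fell, 0 rose and 7 did not pass. Of all 667 rows, 110 fell (16.5%) and 134 rose. The median log2 fold change was -0.38 beside 0.06 over all rows (edgeR). These falls are on the TMM scale: with total counts 8 of the 22 were called lower beside 5.4% of all rows, and with spike-in counts 7 beside 3.3%, with a list median of 0.07. The lowest were mir-212 (-2.01 ± 0.21, SE), mir-192 (-1.95 ± 0.12) and mir-15a (-1.75 ± 0.13), below mir-29c. mir-181b, mir-425, mir-365a and mir-451a lay between -1.33 and -1.20, near mir-29c, and mir-15b stood at -1.04. The other rows called were mir-497 (-0.57), mir-34c (-0.53), mir-194 (-0.39), mir-221 (-0.37), mir-191 (-0.34), mir-222 (-0.33) and mir-16 (-0.26), above the value of mir-29a. Rows of neighbours did not always have like values: mir-132, the neighbour of mir-212, stood at -0.15 ± 0.12 (edgeR adjusted p = 0.362), and mir-181a, beside mir-181b, at -0.26 ± 0.11 (adjusted p = 0.0713). Within a miR-29 pair this cannot be read, because the mir-29b row adds up both loci. The same limit holds for mir-181a and mir-181b. The rows mir-16, mir-181a, mir-181b and mir-194 add up more than 1 locus, as mir-29b does, and mir-365a shares its mature sequence with mir-365b, so its value is uncertain.

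In wild-type clones 12 of these 22 rows fell, beside 64 of all 613 (10.4%), with a list median of -0.53. With spike-in scaling 4 of the 22 were lower there, beside 11 of all rows. In deletion clones 8 fell, beside 38 of all 633 (6%), with a list median of -0.38, and with spike-in scaling 6 were lower, beside 17 of all rows. Under the deletion 5 were called lower with TMM (mir-15b, mir-16, mir-181b, mir-191 and mir-221), beside 38 of all 536 rows (7.09%), with a list median of -0.48. With total scaling this was 1 (mir-15b), beside 4 of all rows, and with spike-in scaling 0 beside 0, with a list median of 0.03. The knockdown in wild-type clones and the deletion share the wild-type control libraries. In each of these comparisons 0 of the 22 rose under any of the 3 scalings. Of all rows, 128 of 613 rose with TMM in wild-type clones, 27 of 633 in deletion clones and 101 of 536 under the deletion. With total or spike-in scaling more of all rows rose in each. Of 12 rows of hairpins with no close neighbour, chosen in the same way, 3 fell in the knockdown over all clones (mir-210 by 0.56, mir-22 by 0.47 and mir-26a by 0.32 on the log2 scale), beside 16.5% of all rows, with a list median of -0.17. With total scaling 1 of the 12 was lower (mir-210) and 2 were higher, beside 36 lower and 210 higher of all 667 rows. With spike-in scaling 0 were lower and 1 was higher, beside 22 lower and 233 higher of all rows. Under the deletion 5 of the 12 were called lower with TMM (mir-103a, mir-107, mir-148b, mir-26a and mir-26b), beside 7.09% of all rows, with a list median of -0.51. With total or spike-in scaling 0 of the 12 were lower, beside 4 and 0 of all 536 rows, so these calls depended on the scale.

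Across the 16 sums of a clone and an arm, the members did not vary as 1 unit. Pearson's r of log2 CPM was 0.74 between mir-29a and mir-29c, 0.52 between mir-29a and mir-29b and 0.45 between mir-29b and mir-29c. Among 191 rows with a mean of at least 100 CPM, those most like mir-29c were mir-15a (r = 0.90), mir-19a (0.88), mir-192 (0.87), mir-532 (0.84) and mir-27b (0.81). Those most like mir-29a were mir-497 (0.83), mir-551b (0.82), mir-192 (0.78), mir-15a (0.78) and mir-15b (0.75). Those most like mir-29b were mir-199b (0.80), mir-199a (0.77), mir-542 (0.77), mir-301a (0.73) and mir-3065 (0.72). The sums share clones and libraries, so these values describe likeness in this table alone.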

How the data were processed

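Small RNA was measured in 32 libraries, 4 vectors in each of 8 clones. The labels' protocols state that 4 spike-in RNAs were added to 400 ng of total RNA, of which 100 ng entered a QIAseq library. The deposited values are raw read counts per precursor row, as the file header and whole-number values show. SAMtools is named in the submitters' processing notes; the aligner, annotation, build, mismatch setting and use of the kit's molecular identifiers are not given in the sources used here. Amplification copies may be among the counts.

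The clone was the replicate. Within each clone the counts of both vectors of an arm were added up, so a deeper library weighs more. In clone 57, ERH shRNA 1 gave 2464819 counts and ERH shRNA 2 gave 6222790. In clone 67, ERH shRNA 1 gave 4324633 counts and ERH shRNA 2 gave 1782947. The 16 sums were fitted with edgeR 4.0.16 (R 4.3.3; glmQLFit, glmQLFTest) after filterByExpr and TMM, with Benjamini-Hochberg adjustment over all rows and a threshold of 0.05. The clone was a block in knockdown and interaction fits, and in the control-vector fit, which used single libraries. The pairing comes from the labels, where all vectors of a clone carry its number; deviations of a clone's 2 arms correlated with r of 0.42 to 0.86. P-values of the knockdown, interaction and control-vector comparisons measure how far the change within a clone varies between clones. Those of the deletion comparisons measure the spread of levels or ratios between clones. Technical spread within a clone is part of both. Ratios used counts plus 0.5 and exact permutation. Log2 CPM used a prior count of 2. The scripts were tested on simulated data.

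The members, lists and tests were chosen with earlier results of these data known. Named rows were the members, the listed rows past the threshold with their neighbours, and for each member the 5 most correlated rows of at least 100 CPM. Alternatives were DESeq2 1.42.0, spike-in or total scaling, 2 other filters (none, or 100 counts on average), single libraries as samples, no block, single vectors, a GC trend (hairpin GC known for 81.9% of rows), a ratio pseudocount of 10 and leaving out each clone. RNAfold was version 2.7.2.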

Additional observations from a re-analysis of the deposited data

Results flagged for a closer look

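The 36 groups of 4 clones examined were levels and ratios of the miR-29 rows and the knockdown changes of both. Of these groups, 1 held a clone far from the others by Dixon's criterion, which chance meets in about 1 of 20 groups. In deletion clones under control shRNAs, clone 30 had a log2 CPM of mir-29b of 11.3753, while clones 34, 42 and 43 lay between 10.4718 and 10.5484. Both control libraries of clone 30 were high, at 2930 and 2195 CPM. Without clone 30 the deletion's log2 fold change of mir-29b went from 0.05 to -0.14, called in neither case.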

How the results depend on the processing

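Of 599 alternative values, 487 kept their direction and side of the threshold or, for counts of called rows, stayed within 1.5-fold. Another 35, all of them such counts, moved by more than 1.5-fold. Of the rest, 45 changed sign, 29 lost a call and 3 gained one. Except where a setting itself removes samples or rows, the cause was not tested. The knockdown call of mir-29c over all clones held in all 18 alternatives (-1.54 to -0.92).

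With spike-in scaling the log2 fold changes were: mir-29a -0.12 (all clones), 0.074 (wild type) and -0.30 (deletion clones), mir-29b 0.33, 0.61 and 0.073, and mir-29c -0.55 (wild type). For the deletion under control shRNAs they were 0.26 (mir-29a) and 0.28 (mir-29c), and for the mir-29a interaction -0.38. Rows called in deletion clones rose from 65 to 102. With total scaling, mir-29a was -0.20 in wild-type clones (no longer called), -0.21 for the interaction and 0.17 for the deletion under control shRNAs. mir-29b was 0.15 (all), 0.34 (wild type) and 0.15 (deletion under ERH shRNAs), and mir-29c was 0.24 (deletion under control shRNAs). Calls were 109 in deletion clones and 29 for the interaction.

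With DESeq2, mir-29b was -0.015 for the deletion under control shRNAs, and calls were 11 for the deletion under ERH shRNAs, 19 for the interaction and 1 for the control vectors. With the GC trend, mir-29a was -0.79 and mir-29b -0.19 for the deletion under control shRNAs, and mir-29b with the replicate block 0.052 for the interaction. With no filter, mir-29a was -0.45 (no longer called) and mir-29b 0.083 in wild-type clones. In that setting mir-29a was -0.12 for the interaction, and calls were 1 (deletion under ERH shRNAs) and 19 (interaction). With a mean of at least 100 counts, mir-29b was 0.0047 (all) and 0.051 (wild type), mir-29a -0.13 for the interaction, and calls were 148 (all), 124 (wild type), 76 (deletion under control shRNAs), 29 (interaction) and 1 (control vectors). With each library as its own sample, which treats libraries of a clone as replicates, mir-29b was 0.016 in wild-type clones, mir-29a -0.029 for the interaction, and calls were 104 (deletion clones), 223 (deletion under control shRNAs), 55 (deletion under ERH shRNAs) and 52 (interaction).

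Without the replicate block, calls fell to 37 (all), 94 (wild type) and 13 (deletion clones). mir-29a was then -0.54 in wild-type and -0.63 in deletion clones, not called in either, and -0.029 for the interaction. The block changed no other call of a member. With the first vectors alone, mir-29b was 0.090 in wild-type clones, mir-29a -0.24 and mir-29c -0.91 for the interaction (30 calls), and mir-29c 0.16 for the deletion under control shRNAs. With the second vectors alone, mir-29a was -0.68 in wild-type and -0.49 in deletion clones, not called, mir-29b -0.30 for the deletion under control shRNAs, and interactions were 0.063 (mir-29b) and 0.042 (mir-29c). Calls were 117 (all), 20 (wild type), 19 (deletion clones) and 35 (deletion under control shRNAs). The log2 ratios were 1.19 (mir-29b to mir-29c, knockdown), -0.78 (mir-29c to mir-29a, knockdown; adjusted p = 0.0938 for both, exact permutation) and -0.11 (mir-29c to mir-29a, deletion under control shRNAs).

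Leaving out 1 clone in turn gave these ranges. Calls were 159 (without clone 55) to 230 over all clones, 112 (without clone 57; 126 without clone 55) to 197 in wild-type clones, and 30 (without clone 30; 38 without clone 42) to 119 (without clone 34) in deletion clones. They were 83 (without clone 34) to 129 for the deletion under control shRNAs, 0 to 1 (without clone 43) under ERH shRNAs, and 0 to 35 (without clone 52; 3 without clone 67) for the interaction. In wild-type clones mir-29a was -0.63 to -0.42 and mir-29b -0.17 to 0.30, and in deletion clones mir-29b was -0.37 to -0.12. For the deletion, mir-29b was -0.14 to 0.18 under control and -0.33 to 0.053 under ERH shRNAs. The mir-29a interaction was -0.17 to 0.069. The knockdown ratios were 1.16 to 1.31 (mir-29b to mir-29c) and -0.90 to -0.73 (mir-29c to mir-29a), with no p past the adjustment among 7 clones. The mir-29c to mir-29a ratio was -0.046 to 0.24 for the deletion under control and -0.48 to 0.066 under ERH shRNAs, and mir-29b to mir-29a was -0.038 to 0.27 under ERH shRNAs.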
